A study of Gallus gallus with 16 samples.

Results

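The hypothalamus of laying hens was compared with their pituitary gland in 8 RNA-seq libraries of the 16 in the series. The members were fixed by a rule on the columns of the expression table. The rule took both hypothalamus libraries with over 13000 genes listed above 0 and all 6 pituitary libraries, with the production groups together. All birds were female Luhua chickens, a Chinese local breed, at 300 days of age. They belonged to a high (HEP) or a low (LEP) egg production group, which the labels define by total egg number, and no other treatment is given. The pituitaries came from HEP hens 1, 2 and 3 and LEP hens 4, 5 and 6, and the hypothalami from HEP hen 3 and LEP hen 4, so that hens 3 and 4 gave both tissues. The labels do not say which lobes of the pituitary or which hypothalamic nuclei were taken, and each library is a mixture of the cell types of its tissue. In such bulk RNA, fewer cells of a type and less RNA per cell cannot be told apart.

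The hypothalamus is the part of the brain that controls the pituitary. Its neurons release peptides, among them gonadotropin-releasing hormone, into blood vessels that lead to the anterior pituitary, where endocrine cells respond by secreting hormones such as luteinizing hormone, follicle-stimulating hormone, prolactin and growth hormone. In the hen, the gonadotropins drive growth of ovarian follicles and ovulation, and prolactin is tied to broodiness. Brain tissue is rich in neurons and glia, while the anterior pituitary is made up largely of secretory cells.

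The expression table gives an Ensembl gene identifier for each of 17108 rows and no gene symbol. A total of 0 of these identifiers could be paired with a symbol in the reference table used here, so the files do not pair the identifiers with names. The tissue labels could not be checked against named markers for that reason. Genes are described as groups, and by identifier for the 2 with the largest difference in each direction. Ranks stand for the others.

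Hypothalamus and pituitary were far apart. FPKM values are fragments per kilobase of transcript, scaled to the size of the library. Of 12095 genes that averaged 1 FPKM or more over the 8 libraries, 1967 were higher and 2564 lower in the hypothalamus. This is 16.3% and 21.2% of the genes tested, 37.5% together. A gene was counted at an adjusted p under 0.05 (limma, two-sided, Benjamini-Hochberg over all genes tested) and an absolute difference of at least 1 in mean log2(FPKM + 1), hypothalamus minus pituitary. Across genes, the 2 hypothalamus libraries correlated with each other at Pearson r = 0.935 and the pituitary libraries at 0.934 to 0.962, against 0.628 to 0.654 between a hypothalamus and a pituitary library.

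**Figure D1:**
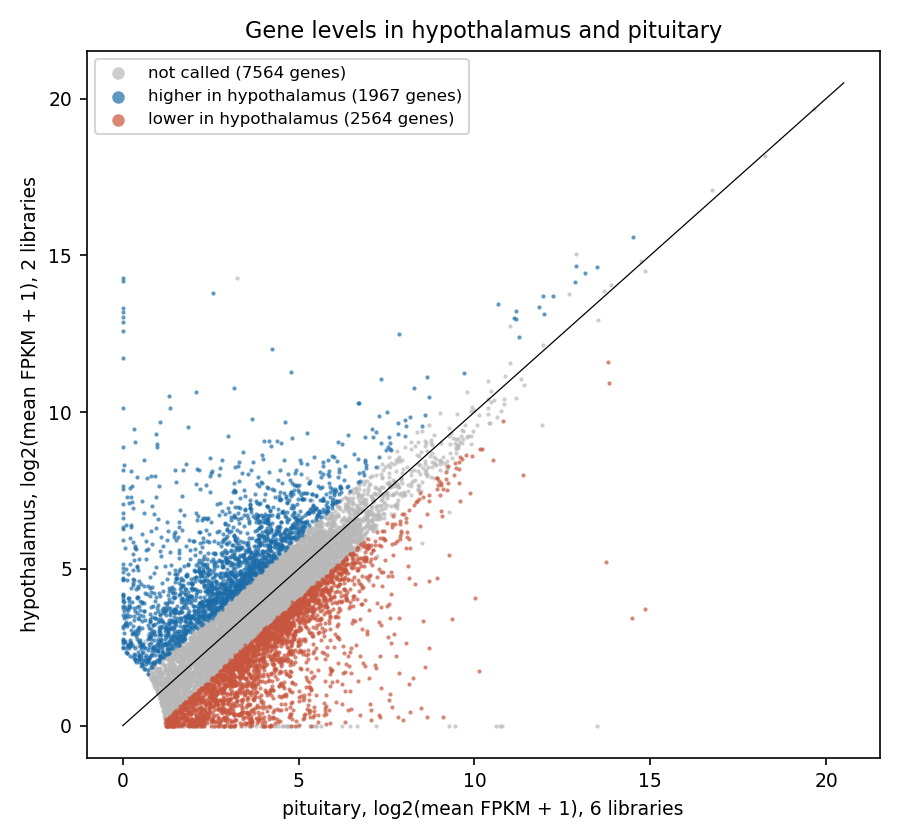
Each point is 1 of 12095 genes, at its mean level in the 6 pituitary libraries (horizontal axis) and in the 2 hypothalamus libraries (vertical axis), both as log2(mean FPKM + 1), with the line of equal levels. Blue points are the 1967 genes higher in the hypothalamus, red points the 2564 lower ones and grey points the 7564 not called.

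Which direction held more genes depended on the scale of the libraries and on the value added before the log. The median log2 difference over all genes tested was -0.21 as deposited, and 43.4% of the calls were higher in the hypothalamus. Scaling each library by its median ratio to the others moved the median to -0.02 and gave 2370 genes higher and 2063 lower, so that 53.5% of the calls were higher in the hypothalamus. All 1967 genes called higher as deposited were also called after this scaling, as were 2063 of the 2564 called lower. The scaling moved the median difference up, so that keeping the higher calls largely follows from it and is no separate check. The libraries of hens 3 and 4 were on different scales: 83.9% of the genes tested were listed higher in the hypothalamus of hen 3. Over all genes tested, the median of hen 3 minus hen 4 was 0.41 (log2). Without the hypothalamus of hen 3 there were 1560 genes higher and 3279 lower, and without that of hen 4 there were 2356 higher and 2005 lower. In these fits the single hypothalamus library left is assumed to vary like the pituitary libraries.

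Large differences were few, and more of them were in favour of the hypothalamus. A log2 difference of at least 2 was reached by 872 of the genes higher in the hypothalamus and 773 of the lower ones, at least 3 by 375 and 294, at least 5 by 90 and 60, and at least 7 by 30 and 12. Some of the large hypothalamus differences rest on 1 library, since the other hypothalamus is at 0. One such gene was listed at 39942 FPKM in hen 3 and at 0 in hen 4 and in every pituitary. At the other end, 4232 genes (35.0%) differed by less than 0.5. Most called genes were thus present in both tissues. Of the genes higher in the hypothalamus, 1656 (84.2%) had a pituitary mean of at least 1 FPKM, and of the lower genes 1883 (73.4%) had a hypothalamus mean of at least 1 FPKM.

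ENSGALG00000000112 had the largest excess in the hypothalamus of the genes that the naming rule admits. It stood at 15392 FPKM in hen 3 and 12998 FPKM in hen 4. In the pituitary it was listed at 4.46, 5.57 and 2.39 FPKM in HEP hens 1, 2 and 3 and at 10.2, 6.64 and 0.178 FPKM in LEP hens 4, 5 and 6. Every pituitary was thus at a small part of the hypothalamus level, and that of LEP hen 6 was the lowest. The mean was 14195 ± 1693 FPKM in the hypothalamus (SD, n = 2) and 4.90 ± 3.46 FPKM in the pituitary (SD, n = 6), a log2 difference of 11.53 (SE 0.64, limma adjusted p = 7.12e-08). In the ovary, which the comparison did not use, this gene stood at 5.05 ± 3.05 FPKM (SD, n = 5).

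ENSGALG00000000909 came second, at 1387 FPKM in hen 3 and 1508 FPKM in hen 4. Its pituitary levels were 1.23, 1.90 and 2.61 FPKM in HEP hens 1, 2 and 3 and 1.58, 1.43 and 0.190 FPKM in LEP hens 4, 5 and 6. Again the 2 tissues did not overlap, which the naming rule requires and which is no result. The log2 difference was 9.26 (SE 0.33, limma adjusted p = 2.57e-09). The ovary was close to the pituitary for this gene, at 0.675 ± 0.471 FPKM (SD, n = 5).

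ENSGALG00000000249 had the largest excess in the pituitary. It stood at 21818, 17037 and 20194 FPKM in HEP hens 1, 2 and 3 and at 27423, 36046 and 54546 FPKM in LEP hens 4, 5 and 6. The hypothalamus had 19.8 FPKM in hen 3 and 4.58 FPKM in hen 4. The log2 difference was -11.30 (SE 0.52, limma adjusted p = 1.64e-08). The 3 HEP pituitaries were below the 3 LEP pituitaries for this gene, by 0.95 on the log2(FPKM + 1) scale (mean of 14.26 against 15.21), with an exact two-sided permutation p = 0.1, the smallest that 3 against 3 allows.

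ENSGALG00000028564 varied less among the pituitaries. It stood at 21991, 24169 and 21197 FPKM in HEP hens 1, 2 and 3 and at 22545, 17837 and 30761 FPKM in LEP hens 4, 5 and 6. The HEP and LEP pituitaries overlapped (mean log2 level 14.45 and 14.50, exact two-sided permutation p = 0.8). The hypothalamus had 13.3 FPKM in hen 3 and 6.20 FPKM in hen 4, and the log2 difference was -11.13 (SE 0.30, limma adjusted p = 4.02e-10). Together these 2 genes made up 5.58% to 9.17% of the summed FPKM of each pituitary library, with the 3 most abundant genes of the table set aside, and no more than 0.0028% in the hypothalamus of hen 3 or hen 4.

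The 12 genes of largest difference in each direction that the naming rule admits are described together. The 12 hypothalamus genes lay between 205 and 15392 FPKM in the hypothalami of hens 3 and 4 and at no more than 10.2 FPKM in any pituitary, with log2 differences of 7.83 to 11.53. The 12 pituitary genes lay between 98.4 and 54546 FPKM in the 6 pituitaries and at no more than 72.5 FPKM in these hypothalami, with log2 differences of -7.04 to -11.30. The adjusted p of these 24 genes was at most 5.33e-06 (limma).

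**Figure D2:**
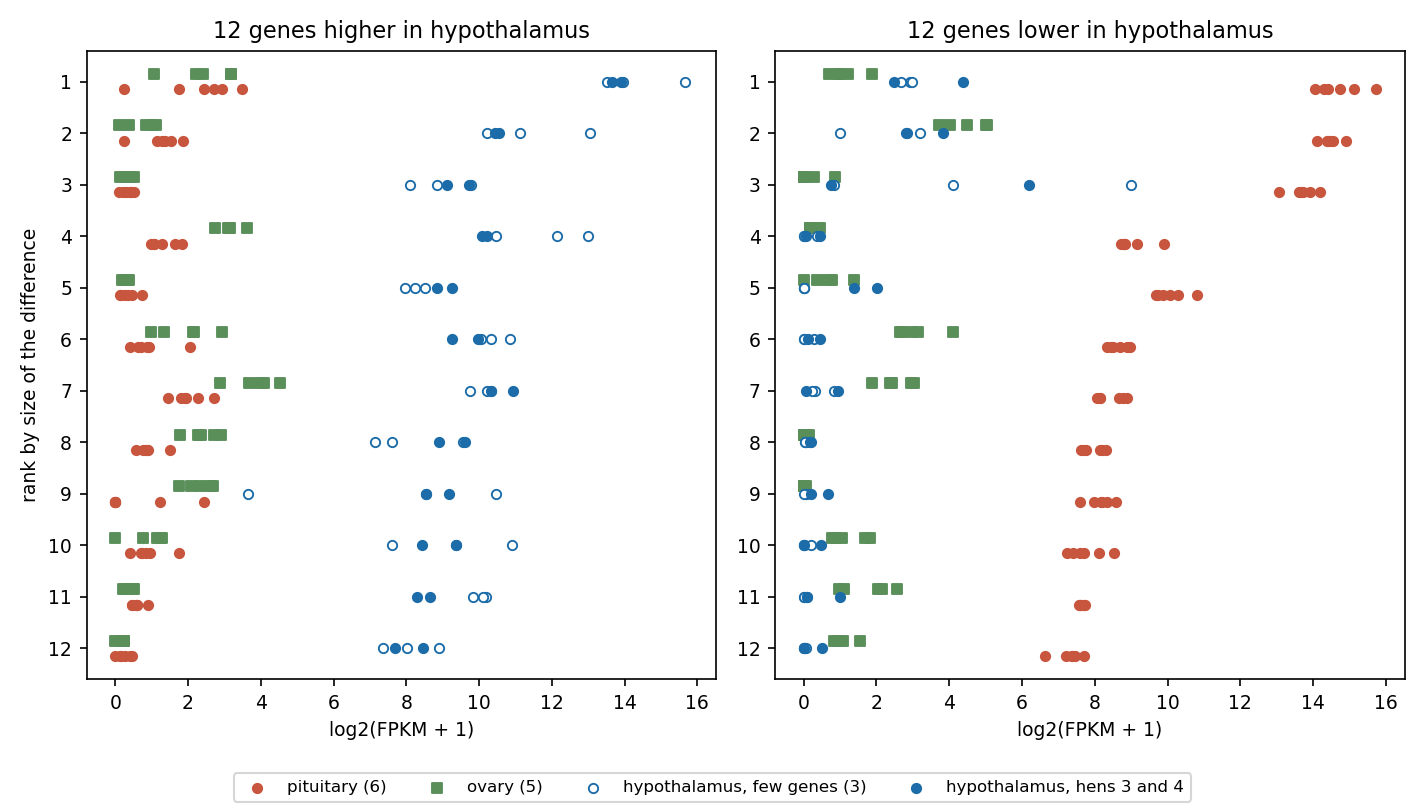
Each row is 1 of the 12 genes of largest difference that the naming rule admits, higher in the hypothalamus (left) or lower (right), in order of the size of the difference, and each symbol is 1 library on the log2(FPKM + 1) axis. Filled blue circles are the hypothalami of hens 3 and 4, open circles the 3 hypothalamus libraries with few genes above 0, red circles the 6 pituitaries and green squares the 5 ovaries. On the right, the third gene spreads widely over the hypothalamus libraries, from 0.695 to 510 FPKM.

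All 12 pituitary genes were listed higher in the hypothalamus of hen 3 than in that of hen 4, as were 83.9% of all genes tested. Of the 12, 2 were at 0 in hen 4. For the other 10 the ratio of hen 3 to hen 4 was 1.14 to 104, where the median ratio over all genes tested was 1.40. Most of the 12 were under 1 FPKM in both hypothalami, so that their ratios rest on values near 0. The gene with the third-largest excess in pituitary was the extreme case, at 72.5 FPKM in hen 3 and 0.695 FPKM in hen 4, against 8646 to 18708 FPKM in the 6 pituitaries. Whether pituitary RNA in the hypothalamus sample of hen 3 had a part in this was not tested. The differences of the 2 pituitary genes given by identifier remained between -10.36 and -12.25 in every alternative fit, those without the hypothalamus of hen 3 or of hen 4 included.

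A wider set of the 100 largest differences per direction was used to see how far the most distinct genes of each tissue were found in the other. It was taken by the same naming rule, and the lowest absolute log2 differences in it were 4.51 (hypothalamus) and 4.16 (pituitary). The median hypothalamus gene of this set was present in a pituitary library at 0.790% to 1.10% of its mean hypothalamus level. HEP and LEP pituitaries overlapped in this value, with 0.966% in hen 3 and 0.823% in hen 4. The median pituitary gene was present at 0.881% of its mean pituitary level in the hypothalamus of hen 3 and at 0.718% in hen 4. In this wider set 74 of 100 pituitary genes were higher in hen 3 than in hen 4 and 22 were lower. Of all genes tested, 83.9% were higher in hen 3. In the set, 6 genes were at 0 in hen 3 and 14 in hen 4. The median ratio of hen 3 to hen 4, for genes above 0 in hen 4, was 1.65, against 1.40 over all genes tested. On the log2(FPKM + 1) scale the median difference was 0.28, against 0.41, so the 2 measures leaned opposite ways. These levels follow from how the set was chosen and carry no test.

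In 2 genes the log2 difference was 12.88 and 10.12, above all or all but 1 of the 12 hypothalamus genes, but the rule left them out because they are at 0 in part of the hypothalamus libraries. The first was listed at 8329 FPKM in hen 3 and 6853 FPKM in hen 4 and at 0 in all 6 pituitaries, in the other 3 hypothalami and in all 5 ovaries. The second was listed at 1218 and 1014 FPKM in hens 3 and 4, with 0 in the same 14 libraries. A value of exactly 0 in such a table can be a failed estimate. In all, 37 genes called higher in the hypothalamus were at 0 in every pituitary, 15 of them with a hypothalamus mean of at least 100 FPKM. For 12 of the 15 this mean comes from 1 hypothalamus, since the other is at 0. In the other direction a 0 is asked of 2 libraries and not of 6. There 49 genes were at 0 in both hypothalami, and their highest pituitary mean was 40.3 FPKM.

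Strict differences in presence were the exception. Of the 12095 genes tested, 120 were called and had at least 5 FPKM in both hypothalami and under 1 FPKM in every pituitary. The reverse, at least 5 FPKM in all 6 pituitaries and under 1 FPKM in both hypothalami, held for 183 genes. The conditions are not equally strict, since they ask for low values in all 6 pituitaries or only in both hypothalami. In the 5 ovaries, 45 of the 120 and 46 of the 183 genes were also under 1 FPKM in every library. By the looser measure of an ovary mean under 1 FPKM, this held for 197 of all 1967 higher and 320 of all 2564 lower genes. Among the 7564 genes not called it held for 303.

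Abundant genes and weakly expressed genes leaned to different sides. Genes were divided by their mean FPKM in the tissue where it was higher. Of 974 genes at 100 to 1000 FPKM, 346 (35.5%) were higher in the hypothalamus and 194 (19.9%) lower, and of 94 genes at 1000 FPKM or more, 39 (41.5%) were higher and 12 (12.8%) lower. At 20 to 100 FPKM the shares were 18.8% and 20.2% of 4439 genes. At 5 to 20 FPKM, 13.2% of 4770 genes were higher and 21.8% lower, and at 1 to 5 FPKM, 6.55% of 1818 genes were higher and 23.4% lower.

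**Figure D3:**
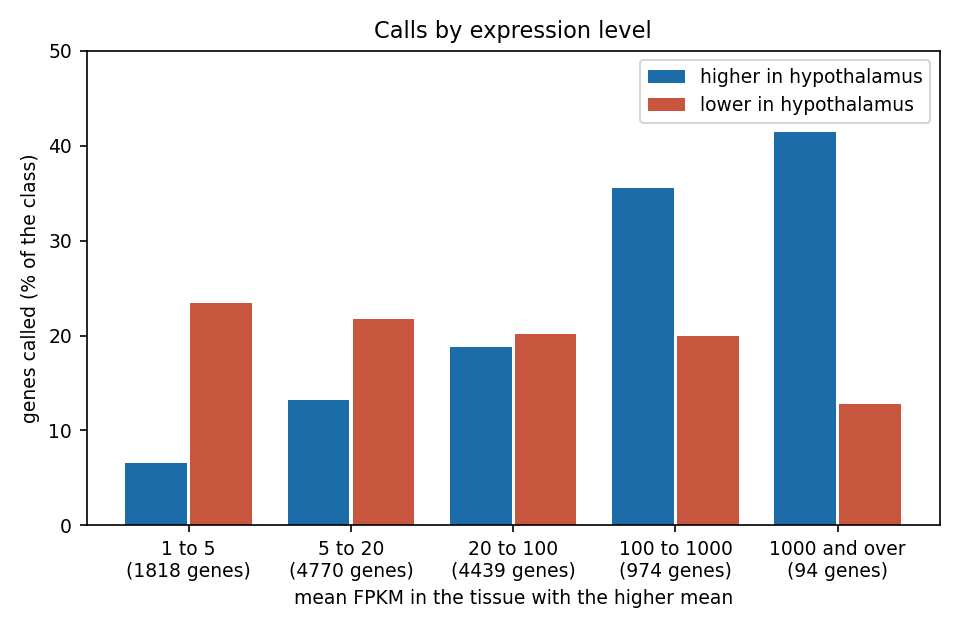
Bars give the percentage of genes in each level class that were higher (blue) or lower (red) in the hypothalamus, with classes set by the mean FPKM in the tissue with the higher mean. The blue bars rise from 6.55% in the lowest class to 41.5% in the highest, while the red bars go from 23.4% to 12.8%.

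The classes from 100 FPKM upward and the lowest class leaned the same way after median-ratio scaling. Of genes at 1000 FPKM or more 43.8% were then higher and 10.4% lower, of genes at 100 to 1000 FPKM 41.6% and 15.5%, and of genes at 1 to 5 FPKM 7.18% and 20.1%. At 20 to 100 FPKM scaling turned the order, to 23.4% higher and 15.1% lower. The lowest class also depends on the filter, since the mean over 8 libraries admits a gene of the pituitary alone from 1.33 FPKM and a gene of the hypothalamus alone from 4.00 FPKM. With a filter that asked for a mean of 1 FPKM or more in either tissue, the shares of this class became 11.1% higher and 20.1% lower.

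The share of the transcript pool that the called genes took up was measured in each library. Its direction is fixed by the choice of the genes, and its size is a description. The 3 most abundant genes made up 53.6% and 62.1% of the summed FPKM in the hypothalami of hens 3 and 4 and 58.1% to 68.9% in the pituitaries, and none of them was called. The pituitaries of HEP hen 2 and LEP hen 6 stood apart from the others here, at 68.9% and 67.7%, above the other 4. The least abundant of the 3 genes was at 239313 and 355739 FPKM in these libraries and at 15863 to 20881 FPKM in the other 4. Without these libraries 1985 genes were higher and 2450 lower in the hypothalamus. Of the remaining FPKM, genes higher in the hypothalamus held 49.7% in hen 3 and 54.7% in hen 4, and 14.1% to 18.4% in the pituitaries. Genes lower in the hypothalamus held 26.7% to 29.7% in the pituitaries and 3.39% and 4.22% in the hypothalami. These are shares of FPKM and not of reads, and genes listed at very high FPKM in some libraries and at 0 in others weigh on them.

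Hens 3 and 4, which gave both tissues, could be compared with their own pituitary. The median within-hen log2 difference of the 1967 hypothalamus genes was 1.92 in hen 3 and 1.65 in hen 4, and that of the 2564 pituitary genes was -1.48 in hen 3 and -1.71 in hen 4. Over all genes tested the medians were -0.08 and -0.36, so the offset between the hens was shared by all groups of genes. In both hens at once, 1516 of the 1967 genes (77.1%) exceeded the pituitary by at least 1, and 1910 of the 2564 genes (74.5%) fell short of it by at least 1. Of all 12095 genes tested, 1542 (12.7%) exceeded it by at least 1 in both hens. The share of all genes that fell short was not determined. The sign was opposite in one of the hens for 2 of the hypothalamus genes and 4 of the pituitary genes. These hens are part of the comparison, so the counts are descriptions.

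The other 3 hypothalamus libraries, from HEP hen 1 and LEP hens 5 and 6, list 6186 to 6843 genes above 0, against 13713 to 14043 in the 8 libraries compared. Their zeros fall mainly on weakly expressed genes. Of 2073 genes at a mean of 1 to 5 FPKM in hens 3 and 4 (with both at 1 FPKM or more), 71.2% to 79.6% were at 0 in each of these libraries. At 20 to 100 FPKM this share was 15.5% to 18.8% of 2708 genes, and at 100 to 1000 FPKM 2.34% to 3.78% of 556 genes. At 1000 FPKM and over it was 6.25% to 12.5% of 48 genes. They were therefore kept out of the main comparison and used mainly for abundant genes. They also entered the naming rule and the alternative fit with all 5 hypothalamus libraries.

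Among genes abundant in the hypothalamus the 3 libraries lay near that of hen 4. The median level of 385 genes higher in the hypothalamus with a hypothalamus mean of at least 100 FPKM was 220 FPKM in hen 3 and 153 FPKM in hen 4. It was 149 FPKM in HEP hen 1, 139 FPKM in LEP hen 5 and 147 FPKM in LEP hen 6, while the 6 pituitaries had 24.4 to 31.7 FPKM. At 0 were 4 and 9 of the 385 genes in hens 3 and 4 and 17 to 20 in the other 3 hypothalami. HEP hen 1, LEP hen 5 and LEP hen 6 listed 327, 300 and 309 of the 385 genes above every pituitary. They listed 17, 38 and 43 below every pituitary, against 0 in hens 3 and 4. The 5 ovaries listed 175 to 192 of the 385 genes above every pituitary and 82 to 104 below. The share of all genes above every pituitary was not determined for the 3 hypothalami, so these counts are descriptions. The 206 genes lower in the hypothalamus with a pituitary mean of at least 100 FPKM had a median of 173 to 227 FPKM in the pituitaries. They are abundant in the pituitary but not in the hypothalamus, where their median was 50.8 FPKM in hen 3, 31.9 FPKM in hen 4 and 19.8, 41.1 and 29.1 FPKM in hens 1, 5 and 6. The last 3 libraries list 62, 48 and 59 of the 206 genes at 0, against 0 and 5 in hens 3 and 4, and place 6, 20 and 30 of them above every pituitary.

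**Figure D4:**
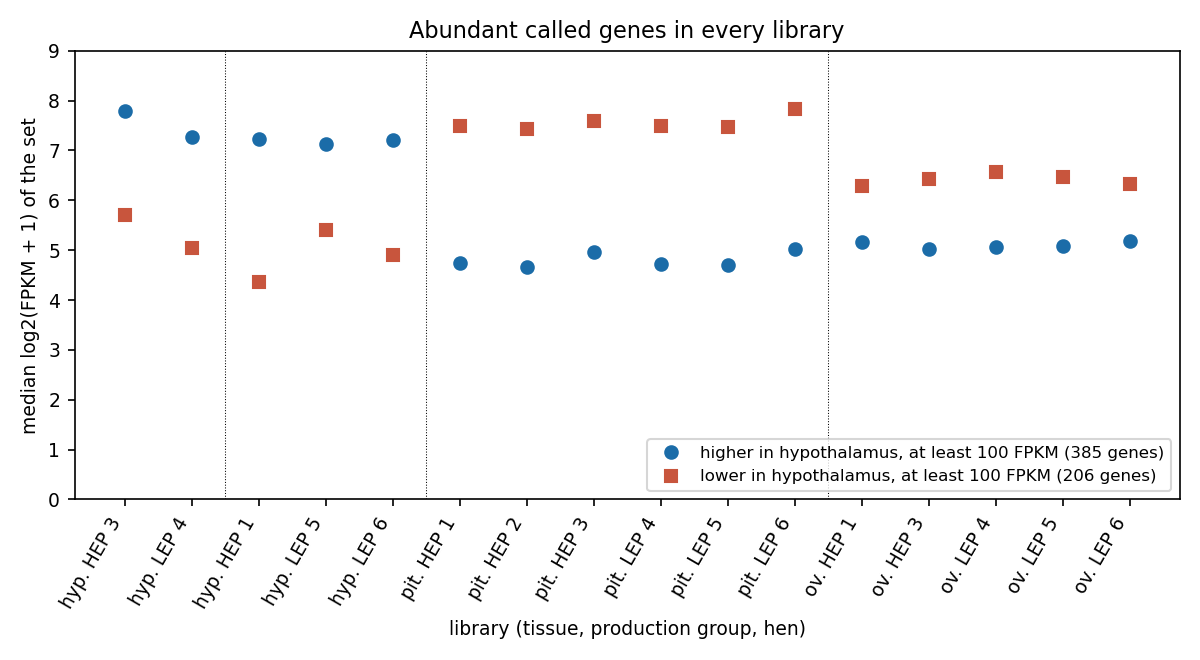
Points give the median log2(FPKM + 1), in each of the 16 libraries, of the 385 genes higher (blue circles) and the 206 genes lower (red squares) in the hypothalamus with at least 100 FPKM in the tissue where they are higher. In all 5 hypothalamus libraries the blue points lie above the red ones, the 3 libraries not used in the comparison included, and in the pituitaries and ovaries they lie below. In the 8 libraries compared this order follows from the choice of the genes. Only the 3 other hypothalami and the ovaries were free to differ.

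The genes given by identifier stood far apart from the pituitary level there too, but these libraries had entered the naming rule. A hypothalamus gene absent from any of them could not be named, so the presence of such genes there is no separate check. The low levels of the pituitary genes are a weak check, since these libraries list many weakly expressed genes as absent. ENSGALG00000000112 stood at 15979, 11639 and 51780 FPKM in the hypothalami of hens 1, 5 and 6 and ENSGALG00000000909 at 2215, 8543 and 1182 FPKM. ENSGALG00000000249 had 5.41, 6.60 and 6.91 FPKM in these libraries and ENSGALG00000028564 had 6.06, 1.00 and 8.10 FPKM. The gene with the third-largest excess in pituitary had 0.775, 510 and 16.3 FPKM, so that LEP hen 5 listed it higher than any other hypothalamus.

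The ovary is a tissue that the comparison did not use. The genes with the largest differences were mostly at the lower level there, in either direction. Of the 90 genes higher in the hypothalamus by at least 5 (log2), the ovary mean was nearer the pituitary for 86.7% and under 1 FPKM for 34 genes. Of the 60 genes lower by at least 5, it was nearer the hypothalamus for 76.7% and under 1 FPKM for 18 genes. At differences of 1 to 2 the ovary was nearer the pituitary for 50.3% of 1095 genes higher in the hypothalamus and for 64.4% of 1791 lower genes. Among the 7564 genes not called it was nearer the pituitary for 58.9%.

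**Figure D5:**
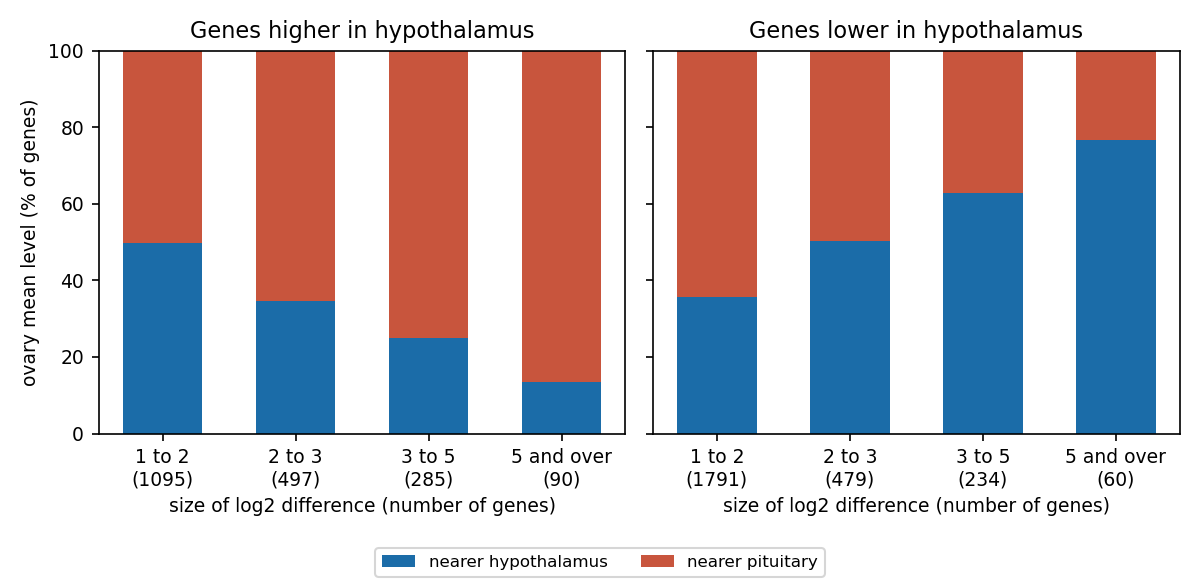
Bars give, by size of the log2 difference between hypothalamus and pituitary, the percentage of called genes whose mean level in the 5 ovary libraries was nearer the hypothalamus (blue) or nearer the pituitary (red). For genes higher in the hypothalamus the red part grows from 50.3% to 86.7%, and for lower genes the blue part grows from 35.6% to 76.7%.

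Some genes stood out in the ovary instead, most of them among the genes not called. Every ovary library exceeded all 8 libraries for 148 of the 1967 hypothalamus genes and 357 of the 2564 pituitary genes, and for 2218 of the 7564 genes not called. Every ovary library was below all 8 for 191, 162 and 611 genes of these groups. The groups are not alike for such counts, since a called gene spans a log2 difference of at least 1 over the 8 libraries.

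The tissue difference was also compared between the production groups, which have 1 hypothalamus library each. The pituitaries supply the spread in this fit, and the lone hypothalamus library of a group is assumed to vary like them, so the p-values do not show a difference between the production groups. In a fit of 4 group means, 31 of 12095 genes (0.256%) passed an adjusted p of 0.05 (limma), 22 with a higher and 9 with a lower tissue difference in hen 3 (HEP) than in hen 4 (LEP). Of these, 24 were at 0 in one hypothalamus and at 11.4 to 39942 FPKM in the other, 16 with the 0 in LEP hen 4 and 8 with it in HEP hen 3, and 21 of the 24 were at 0 in all 6 pituitaries. Pituitaries at 0 add no spread, so that the SE of such a gene comes from the other genes and not from its own libraries. This holds for some of the other 7 genes as well, among them a gene at 0 in HEP hen 3 and 9.36 FPKM in LEP hen 4. Among the remaining 7 genes was the one with the third-largest excess in pituitary, with a difference of 5.33 (SE 0.58, limma adjusted p = 0.0161), set by its 72.5 FPKM in hen 3 and 0.695 FPKM in hen 4. The hypothalami outside the fit lay the other way, with 0.775 FPKM in HEP hen 1 and 510 and 16.3 FPKM in LEP hens 5 and 6. With 1 hypothalamus library a group, library, hen and production group cannot be told apart in this comparison.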

How the data were processed

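RNA of pituitary, ovary and hypothalamus was sequenced on an Illumina HiSeq instrument, per the series design, after isolation with the RNeasy Mini Kit, per the labels' protocols. The authors deposited 1 table of FPKM values per gene and library (17108 rows, 16 columns). Which aligner, annotation, genome build and quantification software the authors used was not given in the sources used here. Depth in reads is unknown, so no counting interval is given. The reference gene table (25635 genes, assembly GRCg7b) matched 0 of the Ensembl identifiers, so gene lists by symbol could not be used.

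Values were analysed as log2(FPKM + 1), for genes with a mean of at least 1 FPKM, with limma 3.58.1 in R 4.3.3 (empirical Bayes with trend). The script was tested on simulated data. Named genes were the largest called differences without overlap between the tissues, leaving out genes listed at 0 in one and at 10 FPKM or more in another library of a tissue, all 5 hypothalami included. Of the 12095 genes tested, 5055 met this last condition and could not be named. The first 2 named genes per direction are given by identifier. Members and lists were chosen with earlier results of these data known.

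Title numbers and codes in the labels tie libraries to hens, so hens 3 and 4 pair the tissues. Deviations from the tissue means correlated at r = -0.082 and 0.020 across genes within these hens, and at -0.044 to 0.082 with the pituitaries of other hens. Only hens 3 and 4 gave a hypothalamus here, so their deviations in that tissue are exact opposites. The values of hen 4 thus repeat those of hen 3 with the sign turned, and they cannot decide the pairing. The fit with hen as a random effect used a within-hen correlation of 0.429. This value rests on hens 3 and 4, the only hens here with both tissues. Both libraries of hen 3 were on a higher scale than both of hen 4, so hen and scale cannot be told apart in it. The alternatives were other pseudocounts, filters and scalings, no trend, hen as block, production as covariate, other sets of libraries and leaving out each library.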

Additional observations from a re-analysis of the deposited data

Results flagged for a closer look

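For 31 genes the interaction of tissue and production group passed an adjusted p of 0.05 (limma). Each production group has 1 hypothalamus library and the spread comes from the pituitaries. The 31 genes thus differ between the libraries of hens 3 and 4, and no difference between HEP and LEP is shown. Of these genes, 24 were at 0 in the hypothalamus of hen 3 or hen 4, and such a 0 can be a failed estimate.

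The gene with the third-largest excess in pituitary had a tissue difference that was 5.33 higher in HEP hen 3 than in LEP hen 4 (log2, SE 0.58, limma adjusted p = 0.0161), from 72.5 and 0.695 FPKM in the hypothalami of hens 3 and 4. The other 3 hypothalami had 0.775 FPKM in HEP hen 1 and 510 and 16.3 FPKM in LEP hens 5 and 6.

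The 6 pituitaries were searched for a library far from the others in 12 values, the levels of the 4 genes given by identifier among them, and 0 were found. This search looks for a single library and does not see a pair such as HEP 2 and LEP 6, in which the 3 most abundant genes took 68.9% and 67.7% of the summed FPKM.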

How the results depend on the processing

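The numbers of genes higher and lower in the hypothalamus, 1967 and 2564, stayed within 1.5 times under most alternatives. With a pseudocount of 5, the lower genes were 1371 and the higher 1412. With all 5 hypothalamus libraries, the higher genes were 757 and the lower 3192. In no alternative did a gene called in one direction pass in the other. Leaving out 1 library gave 1560 to 2356 genes higher and 2005 to 3279 lower. Hen as a fixed block gave 1862 higher and 2575 lower, and as a random effect 1911 and 2563. The block changed no call of the 4 genes given by identifier. The mean of at least 1 FPKM in either tissue and the fit without the pituitaries of hens 2 and 6 were chosen after seeing the data. They gave 2093 and 1985 genes higher and 2583 and 2450 lower.

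The 31 genes past the threshold for the interaction of tissue and production group became 62 with a pseudocount of 5, 129 with no filter on low values, 3 with all 5 hypothalamus libraries and 6 without the genes that switch between 0 and 10 FPKM or more within a tissue. The last leaves out 24 of the 31 by rule, and 1 more did not pass. For the other changes in this part the cause was not tested. Without a hypothalamus library, or with hen as a fixed block, this comparison could not be fitted.

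The log2 differences of the 4 genes given by identifier kept their sign in each of 23 alternatives. They were 10.56 to 12.08 for ENSGALG00000000112, 7.81 to 10.09 for ENSGALG00000000909 and -10.36 to -12.25 for the 2 pituitary genes. These genes were chosen for the size of their difference in the same data, so this is a description and no separate check. Depth in reads is unknown, and weakly expressed genes rest on 2 hypothalamus libraries.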
